A study of Mus musculus with 8 samples.

Results

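Scavenger receptors are cell surface proteins that bind modified lipoproteins, dead cells, free hemoglobin complexes, ferritin, and other particles and carry them into the cell. The 10 mouse genes described here are the class A members Scara3, Scara5, Msr1, Marco, and Colec12, the class B members Cd36, Scarb1, and Scarb2, and Stab1 and Cd163 of other classes, among the 54532 genes of the count table. They were chosen by gene name, and selected on a list drawn up with results of the saline against mAb-DXd/IMQ comparison in view, so their values, and any count of them, are a description and not a test of them. In tissues, Msr1, Marco, Stab1, and Cd163 are known mainly from macrophages, while Scara5 and Scara3 are known from stromal and epithelial cells.

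The RNA came from tumors of 4T1-FLuc, a mouse triple-negative breast cancer line carrying firefly luciferase, grown under the skin of immunocompetent female BALB/cJ mice injected at 6 weeks of age. The conjugate, mAb-DXd/IMQ (HumCD276-Dxd/IMQ in the labels), is an antibody against CD276 whose linked payloads are the topoisomerase inhibitor DXd and IMQ, an imidazoquinoline agonist of Toll-like receptors. Mice received 5 courses by tail vein, each of 16 mg/kg, at intervals of 4 days. Control mice were labelled both saline and PBS, and each group had 4 tumors from different mice, taken at the end of the experiment. A criterion for removal before the endpoint was tumor ulceration above a set size, and the labels give no sequencing batch.

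Reads counted on genes totalled 45019927 to 69582375 per saline tumor and 34591912 to 51625237 per conjugate-treated tumor. These ranges overlapped (two-sided exact permutation test, p = 0.171). Levels are given as CPM, gene counts scaled to TMM-adjusted library size. In the labelled cell type, epithelial tumor cell markers were present in all 8 tumors, with Krt8 between 493 and 887 CPM and Epcam between 193 and 701 CPM.

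Tumors differed in their summed levels of cell type markers. Summed over the 10 macrophage markers, saline tumor 2 reached 6149 CPM and saline tumor 1 had 1205 CPM, against 2836 and 3450 CPM in saline tumors 3 and 4. The 4 mAb-DXd/IMQ tumors lay between 2461 and 3616 CPM. Lyz2 was the most abundant of these markers, and none of the 10 was at 0. The 9 epidermis markers summed to 112 CPM in mAb-DXd/IMQ tumor 2 and 35.5 CPM in saline tumor 1, and to between 8.25 and 13.6 CPM in the other 6 tumors. Krt10 was the most abundant of them, and the defining marker Krt1 was at 0 counts in saline tumors 2 and 4 and in mAb-DXd/IMQ tumors 1 and 4. Skeletal muscle markers, led by Acta1, summed to 44.8 CPM in saline tumor 2 and 80.8 CPM in mAb-DXd/IMQ tumor 2, against 178 to 474 CPM elsewhere, with Tnnc2 at 0 counts in all 8 tumors. Adipocyte markers, led by Cfd, summed to 16.9 CPM or less in each tumor. In such bulk samples, fewer cells of a type and less RNA per cell cannot be told apart.

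**Figure D1:**
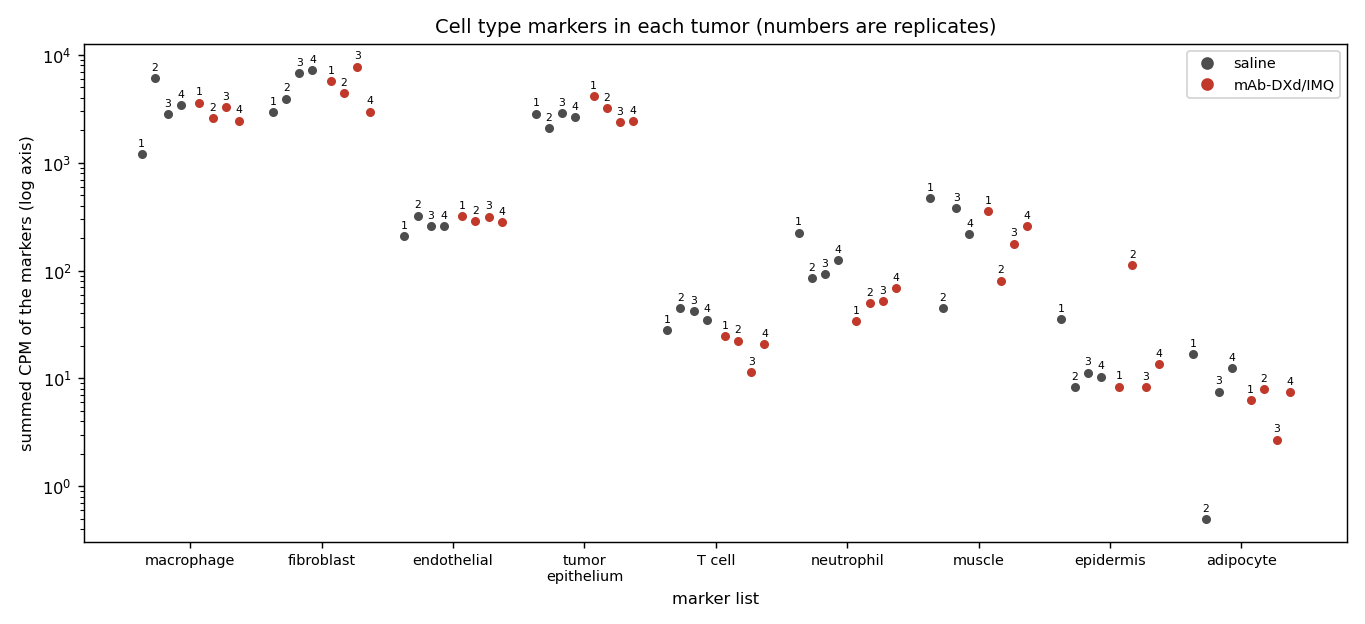
Summed CPM of each marker list (log axis) in every tumor, with saline tumors in gray, mAb-DXd/IMQ tumors in red, and the replicate number beside each point. Saline tumors 1 and 2 mark the lowest and highest macrophage sums (1205 and 6149 CPM), and mAb-DXd/IMQ tumor 2 has the highest epidermis sum (112 CPM).

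Of the 10 receptors, 9 passed the filter on low counts, and Marco did not. Scara5 and Cd163 were lower in mAb-DXd/IMQ tumors and Scara3 was higher, each with no overlap between the groups, while the other 6 receptors overlapped. As a count only, 2 of the 9 lay past both thresholds set for all genes, an FDR of less than 0.05 and a log2 fold change of more than 0.58 in either direction. Over the 18511 genes tested, 1.06% passed both thresholds, 0.519% lower and 0.546% higher in mAb-DXd/IMQ tumors. Groups did not overlap for 7.11% of genes tested with mAb-DXd/IMQ tumors lower and for 5.97% with them higher. Nothing is read from the receptors' counts against these shares, because the choice of receptors used the same comparison. In all, 6 of the 9 receptors had a negative and 3 a positive log2 fold change, with a median of -0.22, against 0.02 over all genes tested. The receptors' median was -0.38 without saline tumor 1, -0.0068 without saline tumor 2, and 0.04 without saline tumor 4. Under upper quartile scaling Scarb2 turned slightly positive (0.03), giving 5 and 4.

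**Figure D2:**
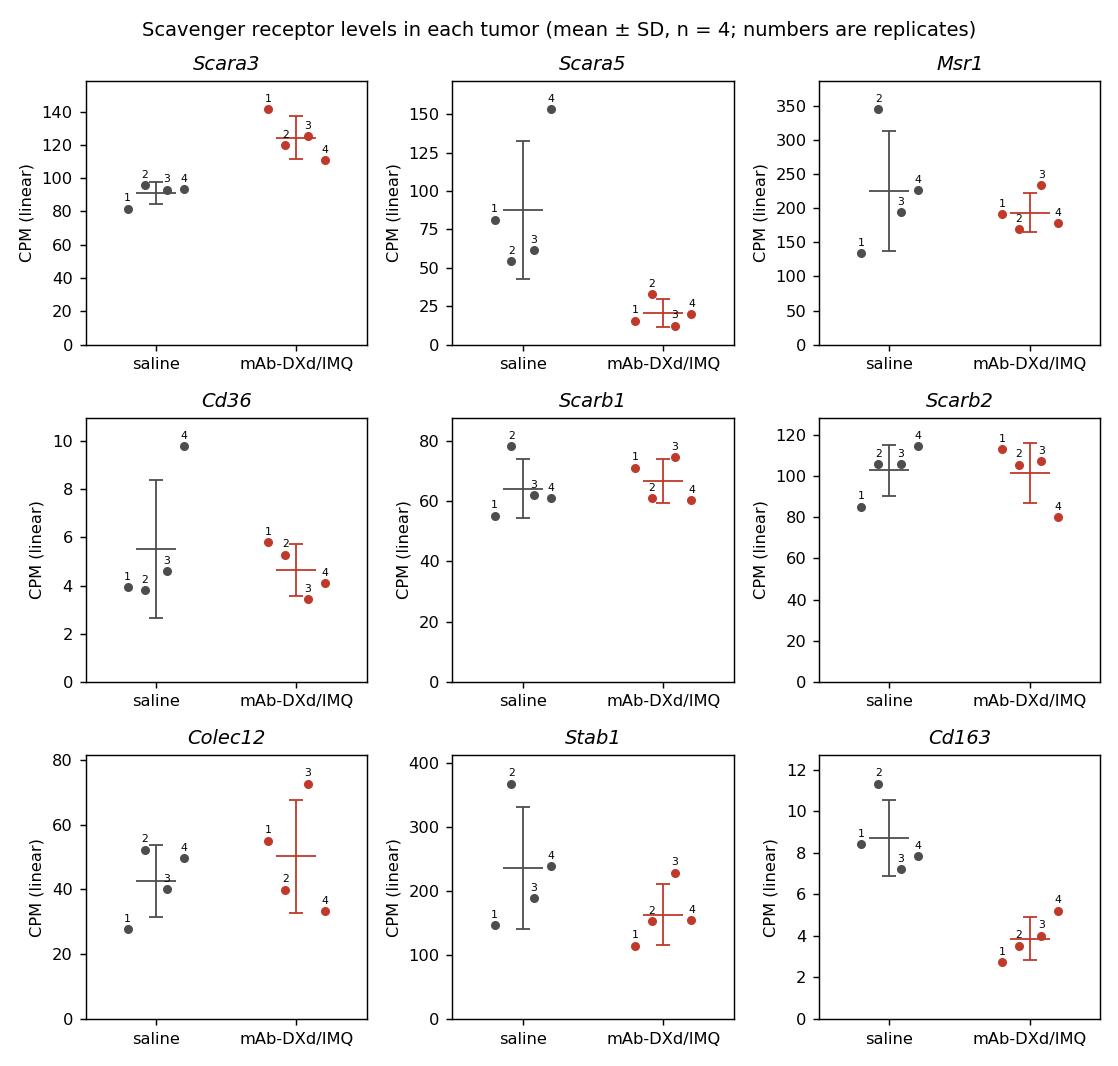
CPM (linear axis from 0) of the 9 receptors above the filter in every tumor, with points numbered by replicate and the mean ± SD of 4 tumors per group. Scara5 and Cd163 are lower in every mAb-DXd/IMQ tumor than in any saline tumor, Scara3 is higher, and the other 6 overlap.

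Among class A receptors, Scara5 binds the light chain of ferritin and takes up iron. Its level was 81.5, 54.6, 61.5, and 153 CPM in saline tumors 1 to 4 and 15.6, 33.1, 12.3, and 20.1 CPM in mAb-DXd/IMQ tumors 1 to 4. The highest conjugate tumor, replicate 2, stayed below the lowest saline tumor, also replicate 2. The means were 87.7 ± 45.2 CPM (SD, n = 4) and 20.3 ± 9.11 CPM (SD, n = 4). The log2 fold change was -2.11 with a standard error of 0.37, a level 4.32-fold lower in mAb-DXd/IMQ tumors. Both groups were spread widely, with the highest tumor 2.81 times the lowest in saline and 2.68 times in mAb-DXd/IMQ tumors.

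Without 1 tumor, the log2 fold change of Scara5 was between -1.69 (without saline tumor 4) and -2.46 (without mAb-DXd/IMQ tumor 2). Its groups did not overlap, so a change of sign was not to be expected, and the range is no support for the difference. The other fits without 1 tumor included -2.25 without saline tumor 3 and -2.01, -1.93, and -2.10 without mAb-DXd/IMQ tumors 1, 3, and 4. Over all genes the count past both thresholds was 197, and it was 111 without saline tumor 2, 10 without saline tumor 3, 11 without saline tumor 4, 76 without mAb-DXd/IMQ tumor 2, 88 without mAb-DXd/IMQ tumor 3, and 12 without mAb-DXd/IMQ tumor 4. With both tumors highest in epidermis markers left out, a choice made after seeing the data, 21 genes passed, and Scara5 had a log2 fold change of -2.49.

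Scara3 is a class A family member known from the response to oxidative stress. It had 81.7, 96.0, 93.2, and 93.5 CPM in saline tumors 1 to 4 and 141, 119.8, 125, and 111 CPM in mAb-DXd/IMQ tumors 1 to 4. Every conjugate tumor was above every saline tumor. The means were 91.1 ± 6.40 CPM (SD, n = 4) and 124 ± 12.9 CPM (SD, n = 4), and the log2 fold change was 0.45 with a standard error of 0.11. Scara3 varied the least of the receptors within saline tumors, with a coefficient of variation of 7.02%, against 51.7% for Cd36 and 51.5% for Scara5.

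Scara5 and Scara3 lie near each other on chromosome 14. In GRCm38 coordinates, Scara5 (ENSMUSG00000022032) lies on the plus strand at chr14:65666403-65764826 and Scara3 (ENSMUSG00000034463) on the minus strand at chr14:65919394-65953935. Their deviations from the group means had a Pearson r of -0.28 over the 8 tumors, a description only.

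Msr1, the macrophage class A receptor for modified lipoproteins, had 135, 345, 195, and 227 CPM in saline tumors 1 to 4. In mAb-DXd/IMQ tumors 1 to 4 it had 192, 169.7, 234, and 179 CPM. The conjugate tumors fell inside the saline range, whose ends were saline tumors 1 and 2, the same tumors that marked the ends of the macrophage marker sums. The means were 225 ± 88.6 CPM and 194 ± 28.7 CPM (SD, n = 4 each), a log2 fold change of -0.22 with a standard error of 0.24. The log2 fold change was 0.06 without saline tumor 2 and -0.40 without saline tumor 1.

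Colec12, a class A receptor with a C-type lectin domain that is known from vascular endothelium, ranged from 27.8 to 52.3 CPM in saline and from 33.3 to 72.7 CPM with the conjugate. The log2 fold change of 0.24 had a standard error of 0.25, and it was 0.011 without mAb-DXd/IMQ tumor 3 and 0.40 without mAb-DXd/IMQ tumor 4. The highest value was in mAb-DXd/IMQ tumor 3, which also had the highest fibroblast marker sum (7806 CPM, led by Col1a1). The highest saline value was in tumor 2, whose fibroblast marker sum was 3939 CPM, below saline tumors 3 (6821 CPM) and 4 (7248 CPM).

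Marco, a class A receptor of resident macrophages, had 0 counts in all 8 tumors. A count of 0 allows up to 3 counts, or between 0.0439 and 0.0843 CPM depending on the tumor, a limit that covers counting error only. Marco (ENSMUSG00000026390, chr1:120474538-120505024, minus strand) shares no exon with another annotated gene, unlike the muscle gene Tnnc2, also at 0 counts, whose exons share 592 bases with Ube2c on the other strand.

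Class B receptors take up fatty acids and lipoproteins or work in the lysosome, and all 3 overlapped between groups. Cd36, a fatty acid and thrombospondin receptor, had 3.93, 3.81, 4.58, and 9.78 CPM in saline and 5.79, 5.28, 3.45, and 4.10 CPM in mAb-DXd/IMQ tumors 1 to 4. Saline tumor 4 was the highest of the 8, and the other 7 lay within 3.45 to 5.79 CPM. The log2 fold change of Cd36 was -0.25 with a standard error of 0.33, and it was 0.19 without saline tumor 4. Scarb1, the receptor for high-density lipoprotein, ranged from 55.2 to 78.2 CPM in saline and from 60.4 to 74.8 CPM with the conjugate, a log2 fold change of 0.06 with a standard error of 0.13. Scarb2, which brings glucocerebrosidase to lysosomes, ranged from 85.2 to 114 CPM in saline and from 80.0 to 113 CPM with the conjugate, a log2 fold change of -0.02 with a standard error of 0.13.

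Cd163, the macrophage receptor for hemoglobin bound to haptoglobin, had 8.43, 11.3, 7.22, and 7.87 CPM in saline tumors 1 to 4. It had 2.72, 3.53, 4.02, and 5.22 CPM in mAb-DXd/IMQ tumors 1 to 4. The lowest saline tumor, replicate 3, was above the highest conjugate tumor, replicate 4. The means were 8.71 ± 1.82 CPM and 3.87 ± 1.05 CPM (SD, n = 4 each), a log2 fold change of -1.17 with a standard error of 0.24, or 2.25-fold lower. Without each tumor in turn the log2 fold change lay between -1.34 (without mAb-DXd/IMQ tumor 4) and -1.02 (without saline tumor 2). The other fits without 1 tumor gave -1.19, -1.25, and -1.21 without saline tumors 1, 3, and 4 and -1.04, -1.13, and -1.19 without mAb-DXd/IMQ tumors 1, 2, and 3.

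Stab1, a receptor of macrophages and sinusoidal endothelium that clears SPARC and modified lipoproteins, had 147, 368, 189, and 239 CPM in saline tumors 1 to 4. In mAb-DXd/IMQ tumors 1 to 4 it had 115, 153, 229, and 155 CPM. The groups overlapped, and saline tumor 2 was the highest, as for Msr1. The log2 fold change was -0.53 with a standard error of 0.28, and -0.24 without saline tumor 2. Stab1 shares 112 exon bases with Nt5dc2 on the other strand, and strand use in counting is not given in the sources used here, so reads in that stretch are uncertain.

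**Figure D3:**
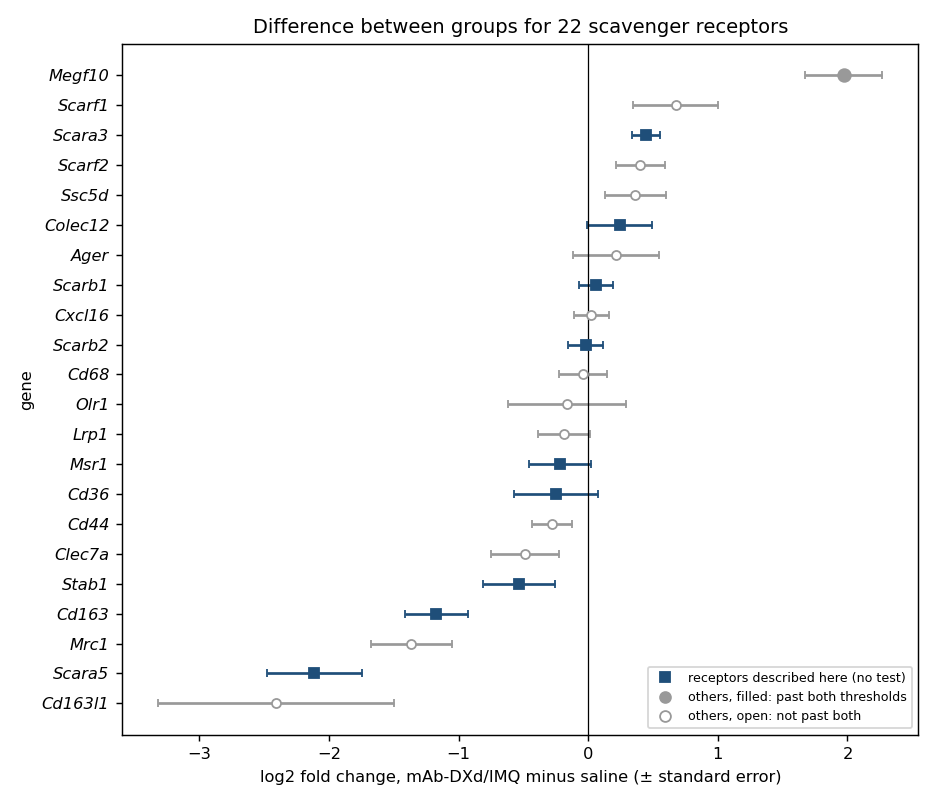
Log2 fold change of mAb-DXd/IMQ against saline tumors with its standard error for 22 scavenger receptors, the 9 described here as blue squares, with no mark of a call, and 13 others as gray circles, filled where past both thresholds. Megf10 (1.97) is the only filled circle, and Scara5 (-2.11) is the lowest square.

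Levels of different receptors were compared per length, as CPM per kilobase of gene length. In saline tumors the order was Msr1 (35.5 ± 13.97, SD, n = 4), Scara3 (25.3 ± 1.78), Stab1 (22.9 ± 9.32), Scarb2 (16.4 ± 1.98), Scara5 (14.4 ± 7.41), Colec12 (12.8 ± 3.35), Scarb1 (7.55 ± 1.16), Cd163 (1.60 ± 0.334), and Cd36 (1.54 ± 0.796). The tumors of each neighboring pair in this order overlapped, except for Scarb1 and Cd163. In mAb-DXd/IMQ tumors, Scara3 (34.5 ± 3.58) and Msr1 (30.5 ± 4.52) led the order, Scara5 (3.33 ± 1.496) was in place 7, and Cd163 (0.709 ± 0.192) was last, behind Cd36 (1.30 ± 0.299).

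**Figure D4:**
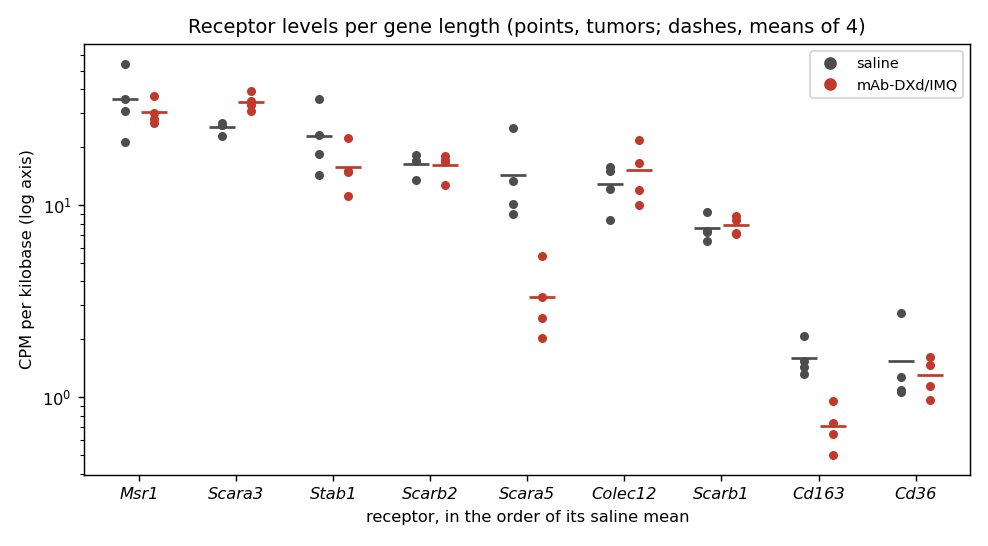
CPM per kilobase of gene length (log axis) of the 9 receptors, in the order of their saline means, with tumors as points and means of 4 as dashes. Msr1 leads in saline tumors (35.5), and Cd163 and Cd36 lie far below the other 7 (1.60 and 1.54).

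Receptors other than Cd36 and Scarb2 were set against cell type markers of the same tumor. The measure was the log2 ratio of a receptor's CPM to the geometric mean of the list. This measure was chosen after seeing the data. Against the 10 macrophage markers, Msr1 had 0.42 ± 0.20 in saline and 0.51 ± 0.21 in mAb-DXd/IMQ tumors (SD, n = 4 each), and Stab1 had 0.48 ± 0.25 and 0.23 ± 0.50. Both overlapped. Cd163 had -4.21 ± 0.63 in saline and -5.16 ± 0.60 with the conjugate, a difference of -0.95. Saline tumor 1 (-3.27) lay well above the other saline tumors and raised the saline mean. On this scale Cd163 overlapped, because mAb-DXd/IMQ tumor 4 (-4.41) was above saline tumors 2 (-4.59), 3 (-4.43), and 4 (-4.56). The macrophage markers themselves had a median log2 fold change of -0.30, which was -0.06 without saline tumor 2 and -0.52 without saline tumor 1. By edgeR, 0 of 10 passed both thresholds. Over all 8 tumors the 10 log2 fold changes were negative, except that Lyz2 (-0.04) turned positive under upper quartile scaling. Each of the 10 was highest in saline tumor 2 (Lyz2 at 3381 CPM), and their signs without that tumor are not given here. Of these 10, 1 had an unadjusted p under 0.05, against 3503 of the 18511 genes tested, and DESeq2 put 1 and limma-voom 0 past both thresholds, against 777 and 174 of the same 18511 genes. DESeq2 used its own filter, with p-values for 31346 genes, of which 19634 were adjusted and 805 passed. The part of macrophage content in the Cd163 difference was not tested.

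Against the 12 fibroblast markers, Scara5 had 0.48 ± 0.58 in saline and -1.63 ± 0.80 in mAb-DXd/IMQ tumors (SD, n = 4 each). The difference was -2.10, and the groups did not overlap, with the lowest saline tumor at -0.19 and the highest conjugate tumor at -0.80. Scara3 had 0.65 ± 0.37 and 1.08 ± 0.21 on this scale, and its groups overlapped. Colec12 overlapped too, at -0.49 ± 0.41 in saline and -0.28 ± 0.24 in mAb-DXd/IMQ tumors. Against the 8 epithelial tumor cell markers, Scara3 had -0.81 ± 0.40 and -0.67 ± 0.40, a difference of 0.15, and its groups also overlapped. The fibroblast markers had a median log2 fold change of -0.06 (-0.27 without saline tumor 1 and 0.17 without saline tumor 4), with 0 of 12 past both thresholds by edgeR and 7 lower and 5 higher, from -0.48 for Pdgfra to 0.90 for Fap. Of these 12, 2 had an unadjusted p under 0.05, and DESeq2 put 1 (Fap) and limma-voom 0 past both thresholds, against 3503, 777, and 174 of the 18511 genes. The part of fibroblast content in the Scara5 and Scara3 differences was not tested. The fibroblast marker sums ranged from 2960 to 7248 CPM in saline and from 2984 to 7806 CPM in mAb-DXd/IMQ tumors.

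**Figure D5:**
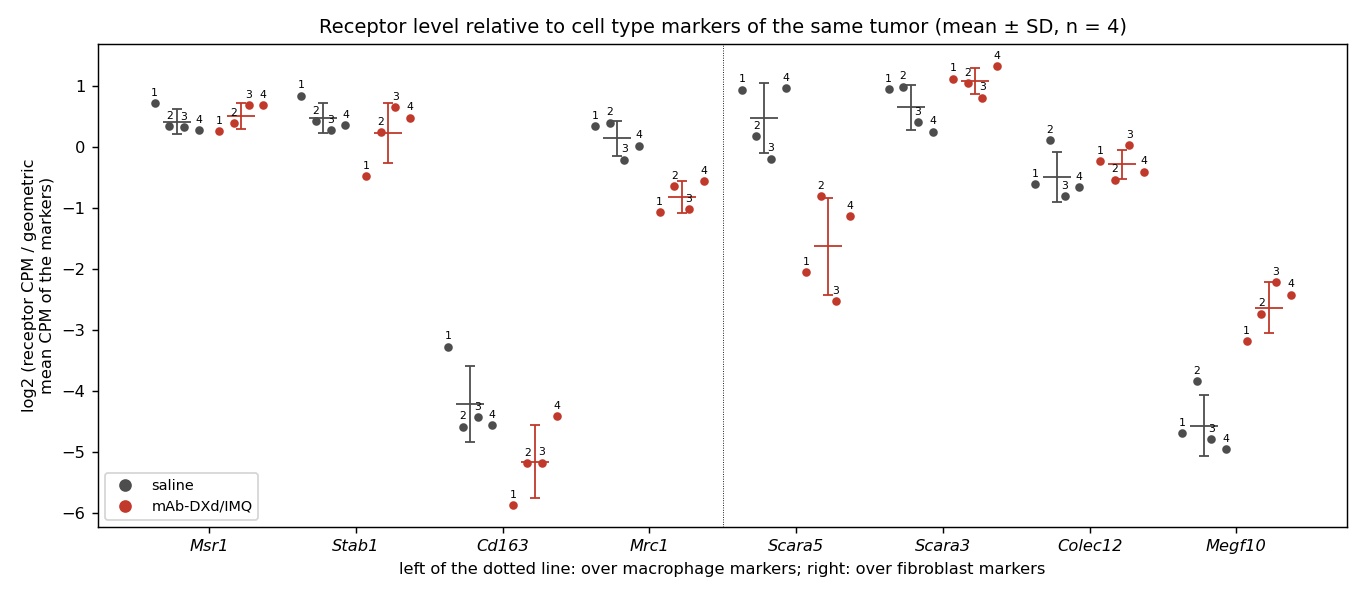
Log2 ratio of receptor CPM to the geometric mean CPM of the macrophage markers (left of the dotted line) or fibroblast markers (right) in each tumor, with the mean ± SD of 4 tumors. Scara5 and Mrc1 are lower and Megf10 is higher in every mAb-DXd/IMQ tumor, while Cd163 overlaps on this scale.

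Promoters are shown for 3 receptors of macrophages, Cd163, which was lower in mAb-DXd/IMQ tumors, Stab1, which was abundant, and Marco, which had no counts. The RefSeq promoter table (GRCm38.p6) held 5 of the 10 receptors, Marco, Cd36, Scarb2, Cd163, and Stab1. Each line gives the 250 bases before the RefSeq start site on the gene's own strand. The windows are chr6:124304401-124304650 (plus strand) for Cd163, chr14:31168642-31168891 (minus strand) for Stab1, and chr1:120505025-120505274 (minus strand) for Marco. The start site is the gene start of the count table for Stab1 and Marco and lies 5 bases away from it for Cd163. Capitals mark matches on either strand to GAGGAA, the core bound by PU.1, to TGCTGA, or to TGANTCA, the AP-1 site.
Cd163: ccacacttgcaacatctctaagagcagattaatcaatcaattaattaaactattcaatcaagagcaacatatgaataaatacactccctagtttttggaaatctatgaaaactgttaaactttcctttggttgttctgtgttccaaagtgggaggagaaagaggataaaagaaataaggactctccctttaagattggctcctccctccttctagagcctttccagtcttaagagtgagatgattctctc
Stab1: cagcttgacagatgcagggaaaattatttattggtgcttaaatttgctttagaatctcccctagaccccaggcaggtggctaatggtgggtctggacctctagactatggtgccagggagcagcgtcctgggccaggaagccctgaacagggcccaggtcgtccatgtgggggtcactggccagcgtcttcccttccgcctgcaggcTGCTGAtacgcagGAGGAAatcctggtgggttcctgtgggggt
Marco: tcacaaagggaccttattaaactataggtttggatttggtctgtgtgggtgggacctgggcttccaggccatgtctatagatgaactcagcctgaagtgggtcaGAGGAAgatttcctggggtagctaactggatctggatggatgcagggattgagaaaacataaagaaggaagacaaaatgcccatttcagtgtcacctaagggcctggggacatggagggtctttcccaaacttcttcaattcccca
The Stab1 window held TGCTGA starting 43 bases and GAGGAA starting 30 bases before the start site, the Marco window held GAGGAA starting 146 bases before it, and the Cd163 window held none of these letters. Of all 32851 promoters, the same 250 bases held GAGGAA in 23.3%, TGCTGA in 16.1%, and TGANTCA in 6.75%. TGCTGA and TGANTCA can share bases. A match is a description of the sequence and not a bound site.

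The genes most like each receptor were taken by Pearson r of their deviations from the group means over the 8 tumors, among the other 14644 tested genes with a mean of at least 1 CPM. With so many genes and so few tumors, high values of r arise easily, and genes of a tumor share its library and depth. Msr1 was most like Sirpa (0.988), Slc40a1 (0.987), and Dab2 (0.987). Stab1 was most like Slc16a6 (0.986), Sema6a (0.984), and Rgl3 (0.980), and Cd163 like Gm10925 (0.985), a pseudogene, Pex10 (0.973), and Lrrc39 (0.970). Among the genes most like Scara5 were Meis2 (0.957) and Sfxn5 (0.955), and Scara3 was most like Lsg1 (0.999), Utp4 (0.994), and Rwdd4a (0.994). Colec12 was most like Serpine2 (0.986), Pip4k2a (0.982), and Cnot6 (0.979), and Cd36 like the pseudogenes Scp2-ps2 (0.969) and Gm6485 (0.958) and Il23a (0.956). Scarb1 was most like Pilra (0.990), Dnajc18 (0.985), and Spryd4 (0.979), and Scarb2 like Noc3l (0.993), Mtfp1 (0.989), and Abi1 (0.989). Among the receptors themselves, r was 0.90 for Msr1 and Scarb1, 0.89 for Msr1 and Stab1, and 0.36 for Msr1 and Cd163.

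Of 17 other scavenger receptors, 13 were tested by edgeR's quasi-likelihood test with Benjamini-Hochberg adjustment over all genes, and 1 passed both thresholds, against 1.06% of all genes tested. At an unadjusted p under 0.05 there were 3, and DESeq2 put 2 (Megf10 and Mrc1) and limma-voom 1 (Megf10) past both thresholds, against 3503, 777, and 174 of the 18511 genes. The 1 gene past by edgeR was Megf10, an engulfment receptor best known from glia and muscle satellite cells, which rose by 1.97 on the log2 scale (standard error 0.30, edgeR adjusted p = 0.0201). Megf10 had 1.64, 3.36, 2.52, and 2.53 CPM in saline and 7.15, 8.71, 15.3, and 8.2 CPM in mAb-DXd/IMQ tumors 1 to 4, so that 4 of 4 conjugate tumors were above every saline tumor. Its call was lost without saline tumor 3 (log2 fold change 1.97), saline tumor 4 (1.98), or mAb-DXd/IMQ tumor 4 (2.05).

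Mrc1, the macrophage mannose receptor, was lower in all 4 conjugate tumors but did not pass (log2 fold change -1.37, standard error 0.31, edgeR adjusted p = 0.0574). It passed in 4 of 19 alternatives, with DESeq2, no filter on low counts, the newer quasi-likelihood method, and without saline tumor 1, and its log2 fold change was -0.90 without saline tumor 2. It had 104, 360.2, 135, and 189 CPM in saline and 75.7, 82.7, 71.9, and 75.6 CPM in mAb-DXd/IMQ tumors 1 to 4. Relative to macrophage markers, Mrc1 did not overlap, at 0.14 ± 0.28 in saline and -0.82 ± 0.26 in mAb-DXd/IMQ tumors (SD, n = 4 each). Cd163l1, a relative of Cd163, had the lowest log2 fold change of the list (-2.41, standard error 0.91) at no more than 1.32 CPM in any tumor, and overlapped (edgeR adjusted p = 0.188). Scarf1 and Scarf2 had log2 fold changes of 0.68 and 0.40, and neither passed. The list had 7 negative and 6 positive log2 fold changes, with a median of -0.04, which was 0.08 without saline tumor 2. Stab2, Lrp2, Cd5l, and Dmbt1 were too low to be tested.

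Among ligands of scavenger receptors, 0 of the 9 tested genes passed both thresholds by edgeR, with 5 lower and 4 higher and a median log2 fold change of -0.09, which was 0.15 without saline tumor 2 and 0.12 with limma-voom. At an unadjusted p under 0.05 there were 2, and DESeq2 put 1 (Fth1) and limma-voom 0 past both thresholds, against 3503, 777, and 174 of the 18511 genes. Ferritin subunits differed in their values. Fth1, the heavy chain, had 4912, 5116, 4761, and 5924 CPM in saline and 3616, 3165, 1847, and 2816 CPM in mAb-DXd/IMQ tumors 1 to 4. The log2 fold change, -0.86, did not pass (standard error 0.21, edgeR adjusted p = 0.0668). Ftl1, the light chain that Scara5 binds, had a log2 fold change of -0.13 with a standard error of 0.15. Sparc, a Stab1 ligand, had 0.41 with a standard error of 0.27, and Thbs1, a Cd36 ligand, had 0.42 with a standard error of 0.15. Haptoglobin (Hp), which Cd163 binds together with hemoglobin, had -0.37 with a standard error of 0.43.

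The handling of internalized cargo showed no gene past both thresholds in edgeR's test. Of 12 receptors and bridges for apoptotic cells, 0 passed, with a median log2 fold change of 0.01 and values from -0.40 for Elmo1 to 0.36 for Pros1. Of 13 genes of lipid uptake, storage, and efflux, 0 passed, with a median of -0.08, from -0.78 for Pparg to 0.55 for Plin2. Of 12 genes of heme and iron handling, 0 passed, with a median of -0.26, from -0.76 for Cp to 0.87 for the iron exporter Slc40a1. Of 12 lysosomal genes, 0 passed, with a median of -0.04, from -0.41 for Npc1 to 0.47 for Cd63. At an unadjusted p under 0.05 there were 4 apoptotic cell, 4 lipid, 4 heme and iron, and 2 lysosomal genes, against 3503 of the 18511 genes tested. Without 1 tumor the medians ranged from -0.04 to 0.21 for apoptotic cell, -0.17 to -0.012 for lipid, -0.35 to -0.16 for heme and iron, and -0.14 to 0.03 for lysosomal genes. DESeq2 put Abca1 and Slc40a1 past both thresholds and limma-voom none of these genes, against 777 and 174 of the 18511 genes. By edgeR, Abca1 was lower (log2 fold change -0.62) and Slc40a1 higher (0.87) in mAb-DXd/IMQ tumors.

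Neutrophil and T-cell marker lists each held 1 gene past both thresholds by edgeR, against 1.06% of all genes tested. Of 6 neutrophil markers tested, Csf3r, the receptor for granulocyte colony-stimulating factor, fell by 0.80 on the log2 scale (standard error 0.16, edgeR adjusted p = 0.0402, lower in 4 of 4 conjugate tumors). At an unadjusted p under 0.05 there were 4 neutrophil markers, and DESeq2 put 3 (S100a8, S100a9, and Csf3r) and limma-voom 1 (Csf3r) past both thresholds. The list's median was -1.27, and -0.78 without saline tumor 1 or -0.71 without both tumors highest in epidermis markers. Of the 6, 5 were lower and 1, Ltf, was higher (0.30). Ly6g and Camp, at no more than 0.589 CPM in any tumor, were too low to be tested. The neutrophil marker sum, led by S100a9, was 85.9 to 226 CPM in saline and 34.0 to 68.6 CPM in mAb-DXd/IMQ tumors. It was highest in saline tumor 1, where S100a9 had 113 CPM. Of 5 T-cell markers, Cd2 fell by 1.44 on the log2 scale (standard error 0.30, edgeR adjusted p = 0.0458, lower in 4 of 4 conjugate tumors), and the list's median was -0.98. All 5 had an unadjusted p under 0.05, and DESeq2 put 4 (Cd3d, Cd3e, Cd2, and Trac) and limma-voom 1 (Cd2) past both thresholds. Of the 18511 genes tested by edgeR, 3503 had an unadjusted p under 0.05, and 777 passed by DESeq2 and 174 by limma-voom. The T-cell marker sum, led by Cd3g, was 27.8 to 44.9 CPM in saline and 11.5 to 24.7 CPM in mAb-DXd/IMQ tumors. The part of these cells in the receptors' differences was not tested. Csf3r kept its call in 1 of the 8 fits without 1 tumor, that without mAb-DXd/IMQ tumor 1 (log2 fold change -0.68), and Cd2 in none, with log2 fold changes between -1.69 without mAb-DXd/IMQ tumor 2 and -1.27 without saline tumor 4.

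In the remaining marker lists no gene passed both thresholds by edgeR. The median log2 fold change was 0.25 for 12 endothelial markers, which summed to 208 to 324 CPM in saline and 282 to 319 CPM in mAb-DXd/IMQ tumors, and 0.29 for 8 epithelial tumor cell markers. It was -0.63 for the 6 adipocyte markers tested, -0.40 for the 7 skeletal muscle markers tested, and 1.01 for the 4 epidermis markers tested. These medians turned on single tumors. For epidermis it was -0.22 without mAb-DXd/IMQ tumor 2 and 2.29 without saline tumor 1. For muscle it was 0.04 without saline tumor 1 and -0.78 without mAb-DXd/IMQ tumor 1. For adipocyte markers it was -1.04 without saline tumor 2 and -0.23 without saline tumor 1, for endothelial markers 0.09 and 0.49 without saline tumors 1 and 2, and for epithelial markers 0.03 and 0.41 without mAb-DXd/IMQ tumors 1 and 4. With limma-voom the median was -0.16 for adipocyte, -0.17 for muscle, and 1.51 for epidermis markers. Of the endothelial markers 4 had an unadjusted p under 0.05, against 3503 of the 18511 genes tested. DESeq2 put Emcn and Lyve1 past both thresholds and limma-voom none, against 777 and 174 of the same 18511 genes. By edgeR these went in opposite directions, with log2 fold changes of 0.87 for Emcn and -1.07 for Lyve1. The endothelial markers, of blood and lymphatic vessels, had 8 positive and 4 negative log2 fold changes, the lowest in Prox1 (-1.47). The other 4 lists had 0 genes at an unadjusted p under 0.05, and 0 by DESeq2 or limma-voom.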

How the data were processed

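Bulk poly-A RNA-seq of 8 tumors, 4 per group, was used. The deposited table gives unnormalized read counts for each gene and tumor, with a gene length. The labels name HISAT2, HISAT, TopHat2, and mm39, without roles, but 98.3% of 54409 shared genes had exactly the positions of GENCODE M21 on GRCm38. The counting program and strand use are not given in the sources used here.

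Genes were filtered by filterByExpr (minimum count 10, total 15), normalized by TMM, and compared by edgeR 4.0.16's quasi-likelihood F-test in R 4.3.3, with an FDR of 0.05 over 18511 genes and an absolute log2 fold change of 0.58 as thresholds. Standard errors were derived from the test statistic. The receptors and the 15 gene lists were chosen with earlier results of these data known. Named genes were all 10 receptors, and from each list the genes past both thresholds, its first 3, and those with the extreme fold changes, plus the 3 genes most like each receptor. A few others are named after their values were seen. Some genes that this rule names are not reported here. Total counts were compared by an exact permutation test. No duplicated library was found. Alternatives used DESeq2 1.42.0, limma 3.58.1, other scalings and filters, a gene length correction, a replicate block, and leaving out tumors. The comparison of mAb-DXd/IMQ against saline was also run on simulated data. Of 100 genes given an absolute log2 fold change of 1, 50% were recovered. Of 100 given an absolute log2 fold change of 2, 81% were recovered. In all, 138 of 18511 genes were called there, 7 of them unchanged.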

Additional observations from a re-analysis of the deposited data

Results flagged for a closer look

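In groups of 4 tumors, a tumor is listed here where its gap to the nearest other tumor exceeded Dixon's critical share of the group's whole range. Of 54 groups checked, 4 met this, and chance gives about 1 in 20. Cd36 in saline tumor 4 was 9.78 CPM, against 4.58 CPM in the next tumor, a gap of 0.871 of the range. Csf3r in mAb-DXd/IMQ tumor 1 was 14.99 CPM, against 21.8 CPM in the next, a gap of 0.869. The epidermis marker sum was 35.5 CPM in saline tumor 1, a gap of 0.890, and 112 CPM in mAb-DXd/IMQ tumor 2, a gap of 0.948. What set these tumors apart was not tested.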

How the results depend on the processing

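The 9 receptors' log2 fold changes moved by less than the spread between tumors in all 177 alternative values, including 6 relative to cell type markers. Of 304 list medians, 5 moved further. These fits share most or all of their tumors, so moves within that spread were likely beforehand and are no support for the values. Without single tumors the log2 fold changes of Msr1, Cd36, Scarb1, and Scarb2 and the receptors' median turned sign. The number of genes past both thresholds (197) was 358 with no filter on low counts, 805 with DESeq2 and its own filter, 787 with DESeq2 on the genes of the edgeR filter (chosen after seeing the data), 122 with a gene length correction, and 21 without both tumors highest in epidermis markers. The receptors past both thresholds (2), a described count and not a test of them, were 1 with upper quartile scaling, 1 with the length correction, and 0 without those 2 tumors. Other listed genes past both thresholds (3 of 141) were 7 with no filter, 16 with DESeq2 under either filter, 6 with the newer quasi-likelihood method, and 0 without those 2 tumors. Upper quartile scaling turned the sign of a few listed genes near 0, Scarb2 among them, and gave 73 genes lower and 145 higher, against 96 and 101. In the main fit, log2 fold changes over all genes tested tended to be lower in longer genes (rho of -0.21 with gene length). With the length correction rho was -0.03. What gave rise to this trend was not tested. Leaving out each tumor in turn gave 10 to 203 genes, 0 to 1 receptors, and 0 to 3 other listed genes. Fewer tumors enter those fits, and the cause was otherwise not tested.

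Replicate numbers recur in both groups but name different mice, so the main fit did not pair them. The deviations of tumors with the same number correlated at -0.17, -0.05, 0.08, and -0.07 for numbers 1 to 4. With 4 tumors per group, such values cannot exclude something shared by tumors of the same number. With the number as a replicate block, 14 genes, 0 receptors, and 0 other listed genes passed, and the same counts of 14, 0, and 0 were found with the length correction and the replicate block together.

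Of 114 values for 6 other tested genes, 28 lost and 11 gained a call, with no change of direction. In TPM the order of the receptors' saline levels was the same as in CPM per kilobase. Bulk tumor RNA does not separate the cells that carry a receptor. The p-values for other genes set the group difference against the spread between 4 tumors per group. The estimate of that spread also draws on the other genes tested.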
